A study of Homo sapiens with 10 samples.

Results

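Interferon-stimulated genes are the genes that cells switch on when an interferon is sensed, and this account covers 39 of them. They were chosen by name: a gene belonged if its symbol in both deposited count tables stood in a list of 39, and all 39 were found among the 58735 genes of the tables. RNA was sequenced in 10 libraries of TPC-1, a cell line established from a human papillary carcinoma of the thyroid. All 10 came from transfected cells: 5 had received an empty vector (EV) and 5 a vector overexpressing (OE) the long non-coding RNA gene PTCSC3-AS1. The labels number the libraries 1 to 5 within each group. The 10 libraries are described as 5 pairs, but what makes a pair is not stated. Replicates 1 to 3 of both groups are deposited in a first table, called the first set here, and replicates 4 and 5 in another, called the second set. The OE columns are headed EST_OE in the first and OE in the second, and the sources used here do not say what separates the sets, what a replicate number stands for or whether libraries came from separate cultures. A p-value here thus reflects variation among these libraries, possibly technical only.

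Library depth ran from 15761474 to 18066559 counts, so that 3 counts were worth 0.166 to 0.190 CPM (counts scaled to a common library size). The thyroid transcription factor PAX8 was between 359.6 and 479.2 CPM in the 10 libraries, while NKX2-1 and TSHR, which also define follicular thyroid cells, had 0 counts in all of them. The level of PTCSC3-AS1 itself was not analysed here, so the group labels have no check of their own. EV replicate 2 stood somewhat apart, with a mean correlation of 0.983 with its own set against 0.988 to 0.991 for the others.

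Type I and type III interferons bind receptors at the cell surface, and the kinases JAK1 and TYK2 then phosphorylate transcription factors of the STAT family, STAT2 among them. Joined by IRF9, these enter the nucleus as a complex that binds a short DNA element, the interferon-stimulated response element, in front of its target genes. Cells can also induce many of the same genes directly, when RNA helicases such as DDX58 (RIG-I) and IFIH1 (MDA5) detect foreign RNA and activate IRF family transcription factors. The 39 genes include effectors that block viral RNA and translation, the ubiquitin-like protein ISG15 with its ligases and protease, the RNA sensors, and parts of the signalling chain itself.

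To show the element that these genes share, promoter windows were taken from RefSeq (GRCh38.p14), each running from 250 bases before to 50 bases after a transcript start. Windows were found for 31 of the 39 genes. The core of the element, GAAA, any 2 bases and GAAA again, was searched on both strands. It occurred in the windows of 21 of 31 members (67.7%) and of 4.38% of all 27305 symbols with a window. The longer form, the core followed by CT, occurred in 14 of 31 members (45.2%) and in 0.322% of all symbols. The site of STAT dimers, TTCNNNGAA (N is any base), occurred in 10 of 31 members (32.3%) and in 9.38% of all symbols. The stretches below belong to 8 members chosen, after their values were seen, among those with a match and with a called difference between replicate numbers, with every match to the core in capitals and the gene's own strand read 5′ to 3′. A match on the opposite strand reads TTTC, any 2 bases and TTTC.
IFIT1, chr10:89392492-89392544, plus strand: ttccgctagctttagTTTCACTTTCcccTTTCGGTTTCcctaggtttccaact
IFIT3, chr10:89327826-89327899, plus strand: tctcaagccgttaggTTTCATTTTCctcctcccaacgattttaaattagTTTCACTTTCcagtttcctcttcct
ISG15, chr1:1013369-1013414, plus strand: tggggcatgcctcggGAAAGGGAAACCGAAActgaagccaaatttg
ISG20, chr15:88638932-88638971, plus strand: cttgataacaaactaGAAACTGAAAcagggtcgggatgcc
DDX60, chr4:168318781-168318855, minus strand: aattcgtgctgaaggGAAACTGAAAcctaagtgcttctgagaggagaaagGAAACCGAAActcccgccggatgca
IFI6, chr1:27672261-27672363, minus strand: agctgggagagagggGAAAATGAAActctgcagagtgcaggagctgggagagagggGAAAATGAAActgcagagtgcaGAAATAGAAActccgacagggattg
IFI27, chr14:94110613-94110665, plus strand: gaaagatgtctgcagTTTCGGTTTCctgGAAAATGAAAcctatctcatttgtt
BST2, chr19:17405730-17405775, minus strand: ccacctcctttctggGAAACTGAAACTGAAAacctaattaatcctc
All 8 stretches lie upstream of the transcript start of their window. Those of ISG15, ISG20 and IFI27 fall inside the span that the deposited tables give the gene, because longer transcripts start farther upstream, and the copy of DDX60 nearer its start lies just inside its span. HERC6 and DDX58, with the lowest p for the difference between numbers 4 and 5, have windows with no match to the core. ISG15 and BST2 each carry 2 overlapping copies of the core, IFI6 carries 3 copies, and ISG20 a single copy. A match describes these letters only and does not show that a factor was bound.

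In EV cells the levels of these genes covered a wide range. Per 1000 bases of the gene length given in the deposited tables, and as means of the 3 EV libraries of the first set, the highest were IFITM3 (253.3 CPM per 1000 bases), a membrane protein that hinders viral entry, then ISG15 (177.7) and IFI6 (177.6). The values of ISG15 and IFI6 overlapped over the 3 libraries. IFI44 (48.3 CPM per 1000 bases) and the translation inhibitor IFIT3 (41.4) followed. At the other end, the antiviral dynamin-like GTPase MX1 was at 0.142 CPM per 1000 bases, its paralog MX2 at 0.0364 and the regulatory helicase DHX58 at 0.120. XAF1, a pro-apoptotic gene, had 0 counts in 8 of 10 libraries and at most 0.115 CPM in the other two, which is below the value of 3 counts. After the filter on low counts, 36 of the 39 genes were tested over the 10 libraries, and DHX58, MX2 and XAF1 were not.

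**Figure D1:**
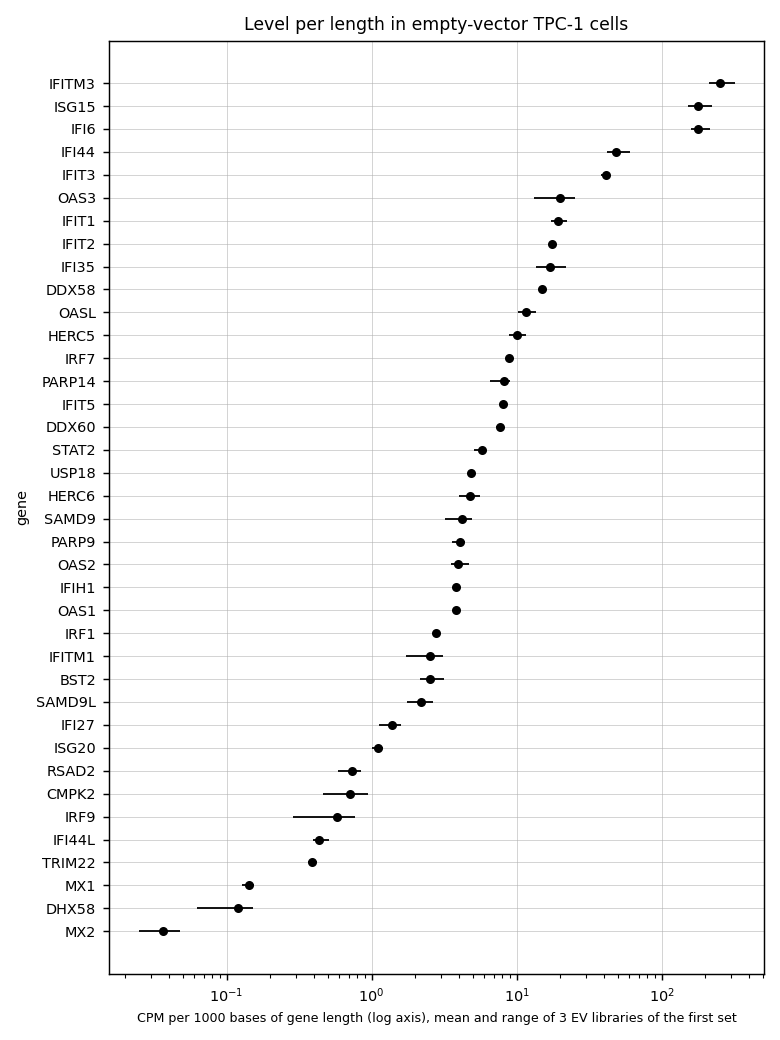
Level of each member per 1000 bases of gene length in the EV libraries of the first set (CPM per 1000 bases, log axis; points are means and bars the range of 3 libraries). IFITM3, ISG15 and IFI6 lie at the top, MX1, DHX58 and MX2 at the bottom, and XAF1, at 0, cannot be drawn on a log axis.

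The clearest pattern among these genes followed the replicate number, in EV and OE cells alike. Most were highest in both libraries numbered 4 and lowest or near their first-set level in both libraries numbered 5. With edgeR's quasi-likelihood test over all 10 libraries, with terms for number and group and Benjamini-Hochberg adjustment over 14217 genes, 28 of 36 members were lower in number 5 than in number 4 and 0 were higher, at an adjusted p under 0.05. Over all genes tested, 0.499% were lower and 0.288% higher. All 36 members were below 0, against 50.3% of all genes, and their median log2 change was -1.26 (range -2.43 to -0.06). Each number has 1 EV and 1 OE library, and this difference between numbers was known when the comparison was chosen. The spread in this test comes from how the OE against EV difference varies over the 5 numbers. If libraries of a number were handled together, the p-value does not measure how far numbers usually differ. The same holds for the comparisons of numbers 4 and 5 with the first set below.

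For each library, the median over the 36 members of log2(CPM + 0.5), taken against each gene's mean over the 10 libraries, was 0.63 in EV replicate 4 and 0.91 in OE replicate 4. It was -0.41 in EV replicate 5 and -0.33 in OE replicate 5, and between -0.27 and 0.06 in the 6 libraries of the first set. In OE replicate 4, 35 of 36 members were above their own mean, and in EV replicate 5 this held for 2 of 36. Both number 4 libraries exceeded the other 8 for 28 of 36 members, against 9.29% of all genes tested. Both number 5 libraries were below the other 8 for 11 of 36 members, against 5.39% of all genes.

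**Figure D2:**
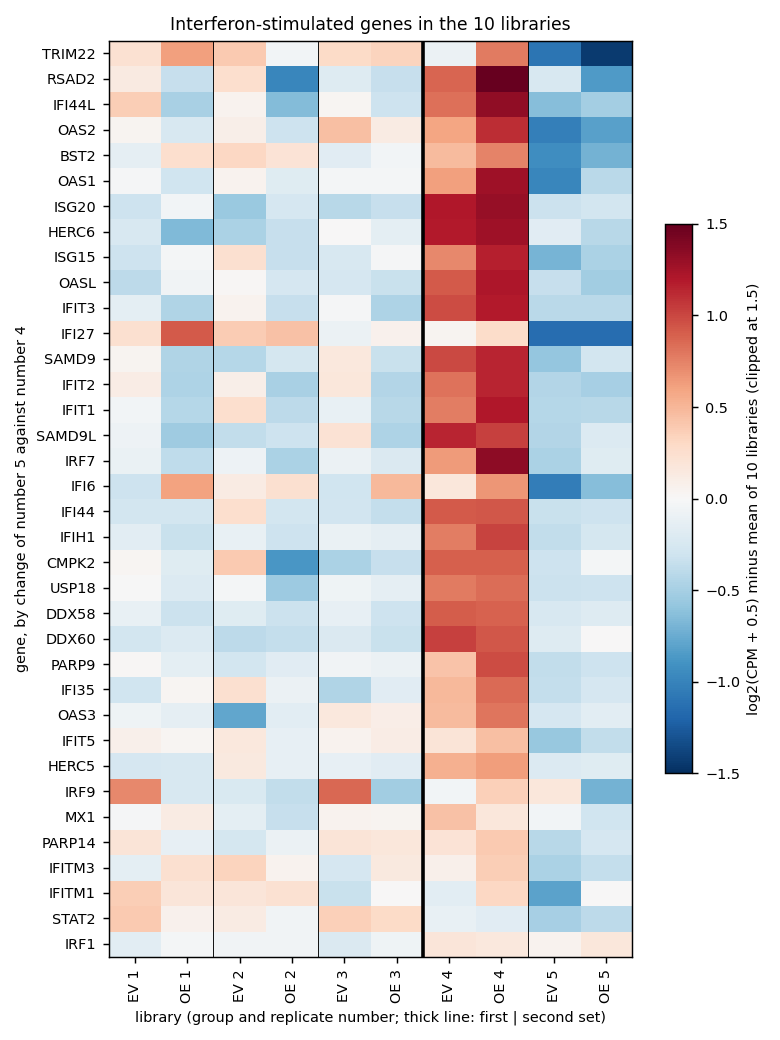
Each tested member (rows) in each library (columns), as log2(CPM + 0.5) minus the gene's mean over the 10 libraries; the colour scale is clipped at 1.5 and the thick line parts the first set from the second. The columns of EV 4 and OE 4 are red for most genes and those of EV 5 and OE 5 mostly blue, with library medians of 0.63 and 0.91 against -0.41 and -0.33.

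Among the IFIT genes, which bind foreign or uncapped RNA and block its translation, all 4 members fell from number 4 to number 5. IFIT1 stood at 147.3 CPM in EV and 198.4 CPM in OE replicate 4, at 63.9 and 64.7 CPM in EV and OE replicate 5, and between 64.2 and 103.0 CPM in the first set. Its log2 change was -1.44 (SE 0.20, edgeR adjusted p = 0.00426). IFIT2 had 117.0 and 147.4 CPM in EV and OE replicate 4, 48.8 and 47.0 CPM in replicate 5, and 47.4 to 74.9 CPM in the first set. For both genes the number 4 libraries lay above all others, and number 5 lay near the OE libraries of the first set. IFIT2 changed by -1.48 (SE 0.20, adjusted p = 0.00426). IFIT3 was at 220.4 and 256.4 CPM in replicate 4 of EV and OE, at 84.9 and 84.6 CPM in replicate 5, and at 81.3 to 116.4 CPM in the first set (log2 change -1.50, SE 0.15, adjusted p = 0.000671). IFIT5 followed a flatter course. It had 34.9 and 42.0 CPM in replicate 4, 20.4 and 23.6 CPM in replicate 5 and 27.9 to 34.1 CPM in the first set, (log2 change -0.80, SE 0.15, adjusted p = 0.0254). The 4 IFIT genes lie within a stretch of chromosome 10, and IFIT1, IFIT2 and IFIT3 overlap LIPA on the opposite strand. The sources used here do not say whether the counting used strand, so reads of LIPA cannot be told apart from theirs.

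ISG15 is attached to other proteins in the way of ubiquitin, HERC5 is its main ligase in human cells, and USP18 removes it again and dampens receptor signalling. ISG15 had 292.4 and 399.9 CPM in EV and OE replicate 4, 109.5 and 127.1 CPM in replicate 5, and 139.3 to 209.1 CPM in the first set (log2 change -1.54, SE 0.19, adjusted p = 0.00244). Its number 5 libraries were below the other 8 and its number 4 libraries above them. HERC5 had 73.0 and 77.8 CPM in number 4, 43.7 and 44.4 CPM in number 5 and 42.0 to 55.8 CPM in the first set (log2 change -0.78, SE 0.12, adjusted p = 0.00805). HERC6, its paralog and neighbour on chromosome 4, had 74.1 and 78.9 CPM in number 4, 28.5 and 24.0 CPM in number 5 and 20.2 to 32.3 CPM in the first set. Here number 5 lay inside the range of the first set, and only number 4 stood out. The log2 change of HERC6 was -1.55 (SE 0.15, adjusted p = 0.000604). USP18 went from 18.6 and 19.4 CPM in number 4 to 8.36 and 8.44 CPM in number 5, with 7.11 to 10.6 CPM in the first set (log2 change -1.18, SE 0.19, adjusted p = 0.0115). ISG20, an exonuclease that degrades single-stranded RNA, was at 26.3 and 28.3 CPM in number 4, at 8.81 and 9.13 CPM in number 5 and at 7.42 to 10.8 CPM in the first set (log2 change -1.60, SE 0.16, adjusted p = 0.000671).

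The OAS enzymes make the oligoadenylates that switch on RNase L, and OASL, which lacks that activity, assists RNA sensing. OAS1 had 29.1 and 46.1 CPM in EV and OE replicate 4, 9.32 and 14.1 CPM in replicate 5 and 15.2 to 19.6 CPM in the first set (log2 change -1.68, SE 0.23, adjusted p = 0.0044). OAS2 had 32.5 and 46.8 CPM in replicate 4, 10.3 and 11.9 CPM in replicate 5 and 17.2 to 29.6 CPM in the first set (log2 change -1.84, SE 0.22, adjusted p = 0.00195). Both genes showed 3 separate tiers, with number 4 at the top, the first set between and number 5 at the bottom. OAS3 had 258.4 and 325.7 CPM in replicate 4, 156.6 and 166.7 CPM in replicate 5 and 108.6 to 207.7 CPM in the first set (log2 change -0.85, SE 0.15, adjusted p = 0.0206). OASL had 89.6 and 109.9 CPM in replicate 4, 37.2 and 32.9 CPM in replicate 5 and 36.0 to 47.9 CPM in the first set (log2 change -1.51, SE 0.16, adjusted p = 0.00071). For OAS3 the lowest library was EV replicate 2, so that number 5 lay within the first set.

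The cytosolic RNA sensors moved in the same way. DDX58 was at 136.0 and 133.5 CPM in EV and OE replicate 4, at 61.2 and 63.2 CPM in replicate 5 and at 57.8 to 66.8 CPM in the first set (log2 change -1.11, SE 0.11, adjusted p = 0.000604). IFIH1 was at 36.5 and 43.4 CPM in replicate 4, at 16.4 and 17.6 CPM in replicate 5 and at 16.8 to 19.8 CPM in the first set (log2 change -1.24, SE 0.15, adjusted p = 0.00237). The 8 libraries outside number 4 were tightly packed for both genes. DDX60, a helicase proposed to assist RIG-I, was at 130.5 and 122.0 CPM in replicate 4, at 55.6 and 64.2 CPM in replicate 5 and at 48.4 to 55.2 CPM in the first set (log2 change -1.08, SE 0.11, adjusted p = 0.00073). Unlike most members, its number 5 libraries were above all of the first set. DHX58, too low to be tested over the 10 libraries, had 0.802 and 0.653 CPM in replicate 4 and 0.0639 and 0.0582 CPM in replicate 5, the latter under the value of 3 counts.

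IFI44 and IFI44L, neighbouring genes on chromosome 1 with antiviral activity, differed in level but shared the step. IFI44 had 197.6 and 199.4 CPM in EV and OE replicate 4, 82.6 and 84.0 CPM in replicate 5 and 81.1 to 123.7 CPM in the first set (log2 change -1.25, SE 0.13, adjusted p = 0.000856). IFI44L had 7.39 and 10.7 CPM in replicate 4, 2.36 and 2.62 CPM in replicate 5 and 2.33 to 5.23 CPM in the first set (log2 change -1.88, SE 0.36, adjusted p = 0.0296). SAMD9 and SAMD9L, neighbours on chromosome 7 that restrict poxviruses, were alike. SAMD9 had 60.2 and 66.7 CPM in replicate 4, 19.98 and 24.7 CPM in replicate 5 and 21.9 to 33.7 CPM in the first set (log2 change -1.50, SE 0.20, adjusted p = 0.00332). SAMD9L had 36.8 and 33.9 CPM in replicate 4, 11.9 and 14.1 CPM in replicate 5 and 11.2 to 19.1 CPM in the first set.

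RSAD2 (viperin), which makes a chain-terminating nucleotide, and CMPK2, a nucleotide kinase, overlap each other on opposite strands of chromosome 2. RSAD2 had 6.53 and 11.99 CPM in EV and OE replicate 4, 2.75 and 1.63 CPM in replicate 5 and 1.44 to 4.07 CPM in the first set. Its log2 change of -2.15 was among the largest and the least certain (SE 0.44, adjusted p = 0.0499). CMPK2 had 5.96 and 5.94 CPM in replicate 4 and 2.30 and 2.91 CPM in replicate 5, and did not pass the test (log2 change -1.18, SE 0.39, adjusted p = 0.295). The PARP family genes PARP9 (-1.07) and PARP14 (-0.64) and the regulator IFI35 (-0.99) were lower in number 5 as well. PARP9 overlaps DTX3L on the opposite strand.

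Some members were set apart more by low values in number 5 than by high values in number 4. IFI6, a mitochondrial and endoplasmic reticulum protein that counters apoptosis and flavivirus replication, had 191.4 and 269.4 CPM in EV and OE replicate 4, 82.5 and 108.6 CPM in replicate 5 and 137.2 to 259.0 CPM in the first set. Its change from number 4 to number 5 was -1.26 on the log2 scale (SE 0.16, adjusted p = 0.00306). IFI27 had 5.15 and 6.11 CPM in replicate 4, 1.98 and 1.98 CPM in replicate 5 and 4.66 to 9.86 CPM in the first set (log2 change -1.50, adjusted p = 0.0212). For both genes number 5 lay below all other libraries. Number 4 lay inside the range of the first set for IFI27, and for IFI6 OE replicate 4 was just above it. BST2 (tetherin), which holds budding virions at the cell surface, had 4.07 and 4.99 CPM in replicate 4, 1.21 and 1.51 CPM in replicate 5 and 2.42 to 3.55 CPM in the first set (log2 change -1.72, adjusted p = 0.0226), and so stood in 3 tiers like OAS1 and OAS2.

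The 8 tested members that did not pass from number 4 to number 5 were CMPK2, IFITM1, IFITM3, IRF1, IRF9, MX1, STAT2 and TRIM22. TRIM22, a ubiquitin ligase, had the largest log2 change, with 1.66 and 3.44 CPM in replicate 4 against 0.575 and 0.349 CPM in replicate 5 (log2 change -2.43, SE 0.52, adjusted p = 0.0604). It overlaps TRIM5 on the opposite strand. IFITM3 had 360.0 and 441.7 CPM in replicate 4 and 245.8 and 266.8 CPM in replicate 5 (log2 change -0.64, SE 0.15, adjusted p = 0.0797), and IFITM1 had 2.18 and 3.21 CPM against 1.21 and 2.50 CPM. The IFITM genes are paralogs, and reads that match more than 1 of them were not examined, so that their counts may be uncertain. MX1 stayed near 1 CPM, with 1.89 and 1.48 CPM in replicate 4 and 1.21 and 0.931 CPM in replicate 5 (log2 change -0.65, SE 0.42, adjusted p = 0.651). MX2 had 0.573 and 1.60 CPM in replicate 4 and 0.128 and 0.582 CPM in replicate 5, and was not tested.

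The signalling genes among the members were mixed. IRF7, the transcription factor that amplifies interferon production, had 38.5 and 63.0 CPM in EV and OE replicate 4, 17.6 and 21.6 CPM in replicate 5 and 17.6 to 23.4 CPM in the first set (log2 change -1.37, SE 0.23, adjusted p = 0.0147). IRF1, which responds to interferon-gamma as well, differed little between numbers 4 and 5, with 27.4 and 27.0 CPM in replicate 4, 25.1 and 27.2 CPM in replicate 5 and 20.6 to 23.6 CPM in the first set (log2 change -0.06, 95% confidence interval -0.34 to 0.22). STAT2 had 26.6 and 25.5 CPM in replicate 4, 20.2 and 21.8 CPM in replicate 5 and 27.7 to 37.8 CPM in the first set (log2 change -0.31, SE 0.14, adjusted p = 0.453). All 4 STAT2 values of the second set were below all 6 of the first, and for IRF1 all 4 were above all 6. IRF9, at 0.640 to 2.91 CPM, overlaps the gene AL136295.5 and had a wide error (log2 change -0.68, SE 0.57).

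**Figure D3:**
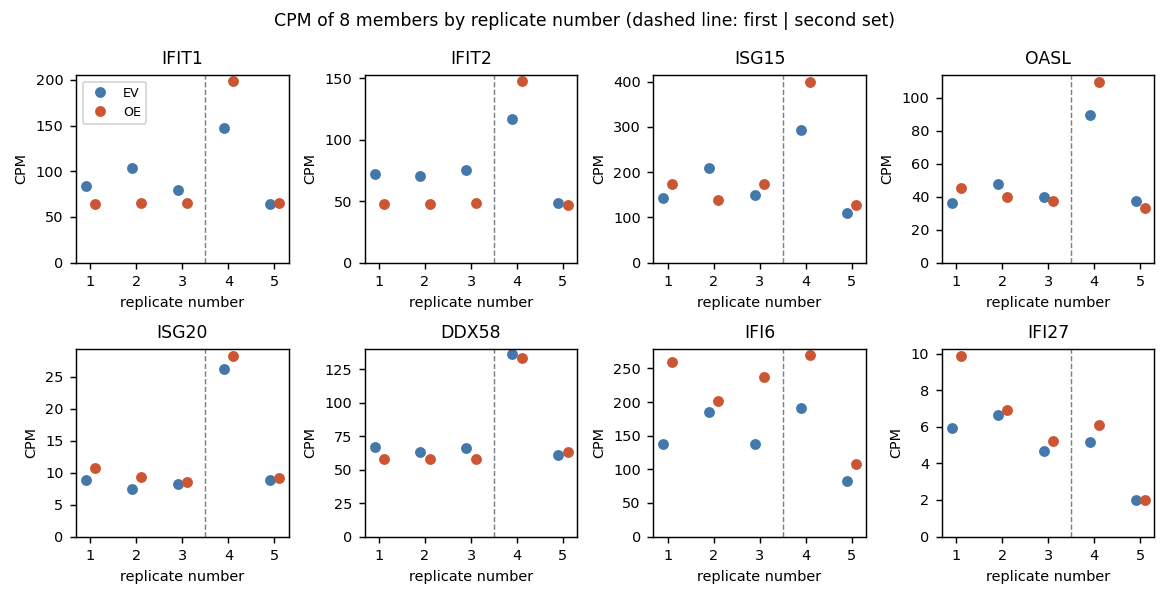
CPM of 8 members in every library by replicate number (blue EV, orange-red OE; the dashed line parts the first set from the second; axes start at 0). For IFIT1, IFIT2, ISG15, OASL, ISG20 and DDX58 both number 4 points lie above all others, such as 147.3 and 198.4 CPM for IFIT1, whereas for IFI6 and IFI27 both number 5 points lie below the rest.

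Leaving out a single library kept the direction of all 28 members, but changed how many passed. With EV replicate 5 left out 5 of the 28 passed, with OE replicate 4 left out 9, with OE replicate 5 left out 11 and with EV replicate 4 left out 19. A number then rests on 1 library, which is assumed to vary like the others. Fitted on the 4 libraries of the second set alone, all 28 passed.

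Set against the 6 libraries of the first set, in a comparison added after the values were seen, 24 of 36 members were higher in number 4 and 0 lower, while 8.39% of all genes tested were higher and 7.83% lower. The median log2 change of the members was 1.04. In number 5, 8 members were lower than in numbers 1 to 3 and 0 higher, while 4.42% of all genes tested were lower and 4.88% higher. The median there was -0.22. These comparisons share the first-set libraries with each other, and the libraries of numbers 4 and 5 with the one above, so their values are given side by side and not as separate evidence. They also cross the deposited tables, so the number and the set cannot be told apart in them.

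By size, the changes at number 4 were led by RSAD2 (log2 1.77, SE 0.32, edgeR adjusted p = 0.00371), ISG20 (1.63, SE 0.12, adjusted p = 8.27e-06) and HERC6 (1.56, SE 0.11, adjusted p = 5.95e-06), or 3.41-fold, 3.09-fold and 2.95-fold. DDX60 had the lowest p (1.28, SE 0.09, adjusted p = 3.75e-06), and DDX58 came next but one (1.13, SE 0.08, adjusted p = 6.4e-06). At number 5, the same 5 genes had log2 changes of -0.38, 0.02, 0.01, 0.21 and 0.01, and 0 of the 5 passed. The order was otherwise for the 8 members lower in number 5. These were IFI6 (-0.998, SE 0.14, adjusted p = 0.00193), IFI27 (-1.69, SE 0.23, adjusted p = 0.00193), STAT2 (-0.65, SE 0.11, adjusted p = 0.00642), OAS2 (-0.98, SE 0.19, adjusted p = 0.00964) and TRIM22 (-2.34, SE 0.46, adjusted p = 0.0109), then IFIT5 (-0.52), BST2 (-1.11) and IFITM3 (-0.48). At number 4 the log2 changes of IFI6, IFI27, STAT2 and TRIM22 were 0.27, -0.19, -0.34 and 0.10, and 0 of these 4 passed. OAS2 was the single member that passed in both, at 0.86 in number 4.

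**Figure D4:**
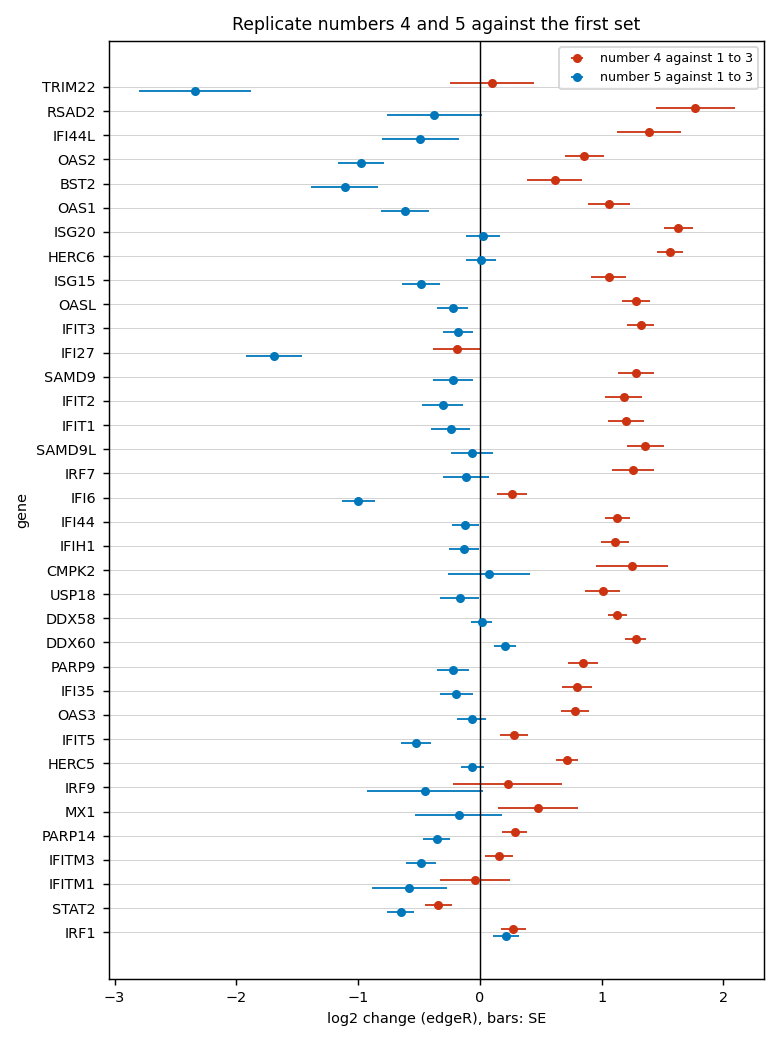
Log2 change of each tested member in replicate number 4 (red) and number 5 (blue) against numbers 1 to 3 (points are edgeR estimates, bars their standard errors). Most red points lie near or above 1, and the blue points lie near 0 except for members such as TRIM22 (-2.34), IFI27 (-1.69), BST2 (-1.11) and IFI6 (-0.998).

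The count at number 4 fell to 16 without OE replicate 4. The count at number 5 was 0 when OE replicate 5 was left out, 1 for EV replicate 5, 5 for OE replicate 3 and 13 for OE replicate 2.

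The promoter matches shown above were spread over both patterns. Of the 23 members with a window that were lower in number 5 than in number 4, 18 held the core (78.3%). Of the 8 with a window that did not pass, 3 held it (37.5%). The longer form differed less, with 11 of the 23 (47.8%) and 3 of the 8 (37.5%). The site of STAT dimers leaned the other way, with 6 of the 23 and 4 of the 8. The differences between these shares were not tested. Among the members higher in number 4 than in the first set, 13 of 19 with a window held the core, and among those lower in number 5 than in the first set, 5 of 6. ISG20 and HERC6 had nearly the same change at number 4, and of these the window of HERC6 held no match to the core.

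Of the other genes of the pathway, the interferons themselves were hardly read. Of 21 ligand genes, 15 had 0 counts in all 10 libraries, and the highest value of any was 1.63 CPM for IFNE, an epithelial type I interferon. IFNB1, the type I interferon most cells make first, had 11 counts in all and at most 0.242 CPM, in EV replicate 3, with 0.115 and 0.0594 CPM in EV and OE replicate 4. IFNE was the single ligand tested, and its change from number 4 to number 5 was -0.05 on the log2 scale (SE 0.78, adjusted p = 0.993).

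From number 4 to number 5, 0 of 6 receptor genes, 1 of 16 nucleic acid sensors and adaptors and 0 of 9 negative regulators passed the test, and the sensor was lower. Of 48 further interferon-induced genes outside the 39, 12 were lower and 0 higher, with a median log2 change of -0.43. Over all genes tested, 0.499% were lower and 0.288% higher. IFI16, a DNA sensor that is in this list and among the sensors, changed by -0.64 (SE 0.12, adjusted p = 0.0296). UBE2L6, the conjugating enzyme for ISG15, changed by -1.17 (SE 0.12, adjusted p = 0.000671), APOL1 by -0.76 (SE 0.11, adjusted p = 0.00805) and ZC3HAV1 (ZAP), which binds CpG-rich viral RNA, by -0.69 (SE 0.11, adjusted p = 0.0088). Of the receptor genes, IFNAR2 (0.67, SE 0.41), IFNGR2 (-0.15, SE 0.11) and IFNLR1 (-0.28, SE 0.21) had the lowest p and did not pass. Nor did the negative regulators NLRX1 (-0.39, SE 0.13), SOCS1 (0.66, SE 0.27) and PTPN11 (0.29, SE 0.12).

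Over all genes, 71 were lower in number 5 than in number 4. Of these, 28 were members (39.4% of the 71, and 77.8% of the members tested), 12 were other pathway genes and 31 were neither. Among the 31 was the keratin KRT8, at 157.9 and 162.0 CPM in number 4, 92.9 and 98.4 CPM in number 5 and 81.5 to 111.2 CPM in the first set. The summed level of 6 epithelial markers was 445.7 to 454.1 CPM in number 4, 391.5 to 397.0 CPM in number 5 and 306.1 to 416.8 CPM in the first set. KRT18, the most abundant of the 6, was at 280.1 and 286.2 CPM in number 4 and at 299.7 and 289.0 CPM in number 5. The markers KRT19, EPCAM and CDH1 were at most 0.389, 0.319 and 0.178 CPM in any library, so the sum is mostly KRT18 and KRT8. The share of counts from mitochondrial ribosomal RNA was 0.839% and 0.772% in number 4, 0.651% and 0.612% in number 5 and 0.512% to 0.712% in the first set. The part of these in the difference was not tested. The 12 leukocyte markers summed to 1.90 to 1.95 CPM in number 4, 1.66 to 2.04 CPM in number 5 and 1.77 to 3.49 CPM in the first set, and 6 of them, including CD3E and MS4A1, had 0 counts in all libraries. PTPRC, the pan-leukocyte marker, was at most 0.171 CPM. The 6 markers of plasmacytoid dendritic cells, the main interferon-producing blood cells, summed to 10.98 to 12.6 CPM in number 4 and 10.5 to 10.7 CPM in number 5. Most of this sum was TCF4, at 11.97 and 10.68 CPM in EV and OE replicate 4 and 10.02 and 9.66 CPM in replicate 5. LILRA4, which defines these cells, had 0 counts throughout.

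Between the sets as a whole, 5 of 36 members were higher in the second set than in the first (DDX60, ISG20, HERC6, DDX58 and IRF1) and 1 was lower (STAT2). Over all genes tested, 9.27% were higher and 9.17% lower, so the members' shares (5 and 1 of 36) are to be read against these. The count depended on the processing: without the filter on low counts 23 members were higher and 2 lower (4.58% and 4.96% of all genes), and limma-voom called 2 higher (9.4% of all genes). STAT2 changed by -0.49 (SE 0.11, edgeR adjusted p = 0.00782), DDX60 by 0.84 (SE 0.20, adjusted p = 0.00944), ISG20 by 1.04 (SE 0.29, adjusted p = 0.024) and HERC6 by 0.98 (SE 0.28, adjusted p = 0.028). DDX58 changed by 0.68 (SE 0.20, adjusted p = 0.0298) and IRF1 by 0.25 (SE 0.08, adjusted p = 0.0443). The median of the 36 members was 0.47. In settings added after the values were seen, it was 1.03 without both number 5 libraries, with 24 members higher and 0 lower (5.92% and 6.31% of all genes). It was -0.22 without both number 4 libraries, with 0 higher and 7 lower (3.07% and 2.89% of all genes). IRF1 and STAT2 had changes of like sign in numbers 4 and 5 against the first set, 0.27 and 0.22 for IRF1 and -0.34 and -0.65 for STAT2. With single libraries left out, the count of members higher was 0 for EV or OE replicate 4, 1 for OE replicate 2, 2 for OE replicate 1 or 3, 14 for EV replicate 2 or OE replicate 5, and 16 for EV replicate 5. The share of all genes called in these fits is not given here, nor in those for replicate numbers above. Such counts therefore cannot be set against the other genes.

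The vector was compared next, which is the comparison that the study set up. Over both sets, with a term for the set, 0 of 36 members passed in either direction by edgeR's quasi-likelihood test, by DESeq2 or by limma-voom, and 2 had an unadjusted p under 0.05, as did 5.71% of all genes. Of all 14217 genes tested, 0% passed. The members were split evenly, with 18 of 36 above 0, against 49.2% of all genes, and a median log2 change of -0.00097 (range -0.82 to 0.55). The lowest p were those of IFI6 (0.55, 95% confidence interval 0.05 to 1.04, adjusted p = 0.847) and IRF9 (-0.82, interval -1.59 to -0.04, adjusted p = 0.847), then IFITM1 (0.31, SE 0.24) and IFITM3 (0.18, SE 0.15). For 0 of 36 members did all 5 OE libraries lie above or below all 5 EV libraries, against 0.253% and 0.295% of all genes. The median standard error of a member was 0.27 on the log2 scale.

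In the first set, 0 of 36 members passed either way in edgeR, while 5 of 14340 genes, 0.0349%, were lower and 0% higher. By unadjusted p, 9 of 36 members and 8.84% of all genes were under 0.05. The log2 changes leaned below 0, with 26 of 36 below and a median of -0.13, against 52.3% of all genes below and a median of -0.01. IFIT2 came nearest, with 72.0, 70.5 and 74.9 CPM in EV and 48.0, 47.4 and 48.7 CPM in OE replicates 1 to 3. The groups were well apart, each within a few CPM, and the log2 change was -0.60 (SE 0.09, adjusted p = 0.0838). IFIT1 had 83.7, 103.0 and 79.9 CPM in EV and 64.2, 65.7 and 64.8 CPM in OE (-0.46, SE 0.11, adjusted p = 0.351). IFIT3 had 101.0, 116.4 and 110.6 CPM in EV and 82.1, 88.4 and 81.3 CPM in OE (-0.39, SE 0.09, adjusted p = 0.351). IFIT5, the remaining member of that family, had 32.2, 34.1 and 31.6 CPM in EV and 31.2, 27.9 and 33.0 CPM in OE, and its groups overlapped (-0.10, SE 0.10). IFI6 went the other way, with 137.2, 185.6 and 138.1 CPM in EV and 259.0, 201.3 and 237.7 CPM in OE (0.59, SE 0.14, adjusted p = 0.351).

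All 3 OE libraries of the first set were below all 3 EV libraries for 9 members (IFIT1, IFIT2, IFIT3, IFI44L, DDX58, IRF7, IRF9, RSAD2 and USP18), against 7.86% of all genes, and above them for 1, IFI6, against 9.15%. IFI44L had 5.23, 4.13 and 4.06 CPM in EV and 2.68, 2.33 and 3.08 CPM in OE, and IRF7 had 23.0, 23.4 and 23.1 CPM in EV and 18.8, 17.6 and 21.1 CPM in OE. Neither passed the test (adjusted p = 0.442 and 0.534). These calls changed with EV replicate 2: without it, 8 members were lower (IFIT1, IFIT2, IFIT3, SAMD9, SAMD9L, IRF9, IFI44L and OAS2) and 2 higher (IFI6 and IFITM3), while 4.62% of all genes were lower and 6.07% higher. IFIT2 then had -0.62 (SE 0.08, adjusted p = 7.26e-06) and IFI6 had 0.75 (SE 0.08, adjusted p = 4.28e-07). DESeq2 on all 6 libraries called IFIT2 lower (adjusted p = 5.02e-06) and IFI6 higher (adjusted p = 0.0297), with 0.363% of all genes lower and 0.167% higher, and limma-voom called 0.

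In the second set, 0 of 37 members passed, 0 had an unadjusted p under 0.05 in edgeR (1.1% of all genes), and DESeq2 and limma-voom also called 0; of all 14419 genes, 0% passed. DHX58 is the member added here. The log2 changes leaned above 0, with 32 of 37 above and a median of 0.19, against 50.8% of all genes above. The median standard error was 0.52, against 0.15 in the first set. This fit has no term for the replicate number, so the distance between numbers 4 and 5 counts as spread within each group. The result of 0 members thus depends on that choice. With the number as a block, an alternative described further below, 8 members were higher and 0 lower. Of all genes, 0.326% were higher and 0.166% lower in that fit. IFITM1 had the lowest p, with 2.18 and 1.21 CPM in EV and 3.21 and 2.50 CPM in OE (0.74, SE 0.41, unadjusted p = 0.11, adjusted p = 1.0). It was the single tested member whose OE libraries were both above both EV libraries, against 12.3% of all genes tested. MX2, too low to be tested, had 0.573 and 0.128 CPM in EV and 1.60 and 0.582 CPM in OE. IRF7 had log2 changes of 0.59 (SE 0.52), OAS1 of 0.64 (SE 0.63) and IFI6 of 0.47 (SE 0.48), each with an adjusted p of 1.0. Without OE replicate 4 the median of the members was -0.67, and leaving out each library in turn gave medians of -0.671 to 0.941. Such a fit sets a single number in a group against numbers 4 and 5 in the other, so the distance between the numbers enters it.

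The difference of the vector's change between the sets was tested directly with an interaction term. The median of the 36 members was 0.32, and 31 of 36 were above 0, against 48.7% of all genes. In edgeR 0 members passed, as in DESeq2 and limma-voom, and 0 had an unadjusted p under 0.05 (3.49% of all genes), while 0.00703% of all genes passed. The lowest p belonged to IRF7 (0.86, SE 0.51), IFI44L (1.17, SE 0.73), IFIT2 (0.82, SE 0.54) and RSAD2 (1.26, SE 0.86), each with an adjusted p of 1.0. The signs turned without OE replicate 4: IRF7 had -0.09, IFI44L -0.16, IFIT2 -0.21 and RSAD2 -0.78, and the median was -0.41.

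By replicate number, OE minus EV in log2(CPM + 0.5) had a median over the 36 members of -0.18 in number 1, -0.22 in number 2, -0.05 in number 3, 0.26 in number 4 and 0.10 in number 5. The members above 0 were 13, 12, 13, 29 and 27 of 36, while 51.2%, 49.6%, 51.2%, 49.6% and 49.6% of all genes tested were above 0. IFI6 was above 0 in 5 of 5 numbers, with 0.92, 0.12, 0.78, 0.49 and 0.39. IFIT2 was at -0.58, -0.57 and -0.62 in numbers 1 to 3, at 0.33 in number 4 and at -0.05 in number 5. RSAD2 was at -0.49, -1.23, -0.15, 0.83 and -0.61, and so did not keep a sign within the second set. IRF9 was at -0.96, -0.15, -1.39, 0.40 and -0.88.

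**Figure D5:**
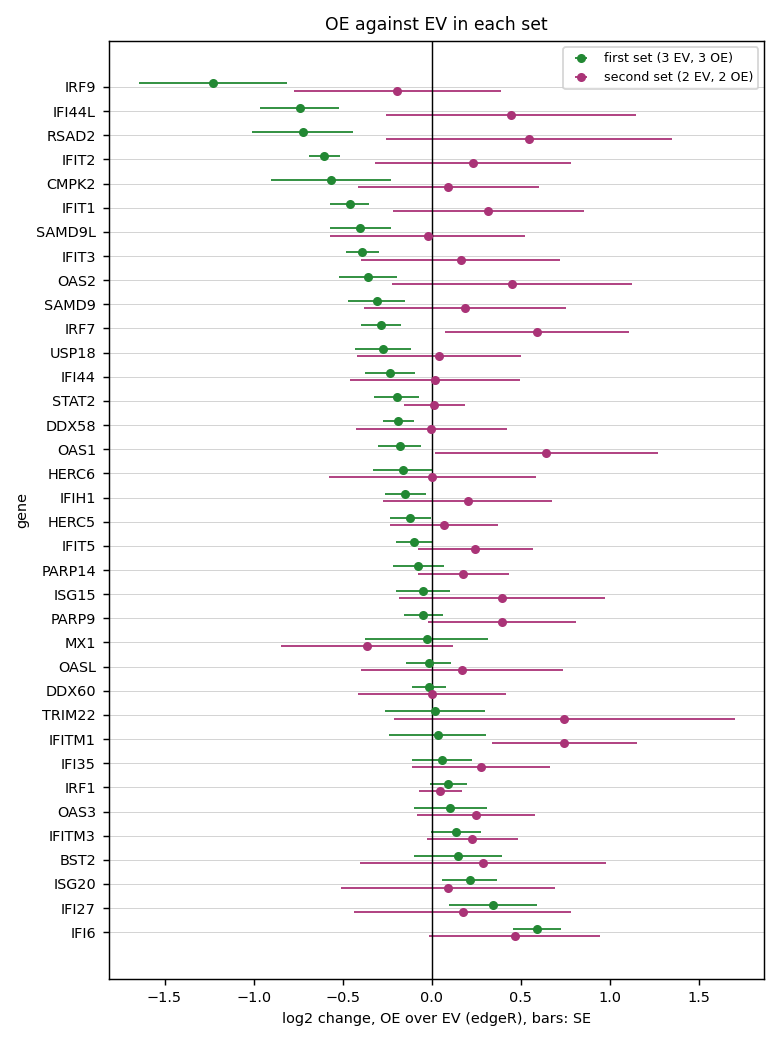
Log2 change of each tested member with the vector, OE over EV, in the first set (green, 3 EV and 3 OE libraries) and the second set (purple, 2 EV and 2 OE libraries); points are edgeR estimates and bars standard errors. The green points lie mostly below 0 (median -0.13) with short bars, and the purple points mostly above 0 (median 0.19) with long bars; IFI6 is above 0 in both.

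The authors' deposited table gives a comparison of OE with EV for replicate 4 and for replicate 5 separately. In the authors' deposited table, 31 of 39 members had a log2 fold change above 0 in replicate 4 and 30 of 38 in replicate 5, against 51.0% and 50.6% of the genes listed. By the adjusted p of the authors' deposited table, 0 members passed in either, while 0.00935% of the genes were higher in replicate 4 and 0.0141% in replicate 5. Each of those comparisons sets 1 library against 1.

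With the vector, the rest of the pathway showed no call either. Over both sets, 0 of 1 ligand, 0 of 6 receptor, 0 of 5 JAK-STAT, 0 of 16 sensor, 0 of 9 negative regulator and 0 of 48 further interferon-induced genes passed in edgeR, with 0, 0, 0, 1, 1 and 3 at an unadjusted p under 0.05. Of all genes tested, 5.71% had an unadjusted p under 0.05. The counts of genes that passed were also 0 in the first set, in the second set and for the difference between them. IKBKE, a kinase that activates IRF factors, had 0.22 (SE 0.09, adjusted p = 0.847), SOCS3, a feedback inhibitor of JAK kinases, 0.25 (SE 0.10, adjusted p = 0.847), HLA-C 0.34 (SE 0.11, adjusted p = 0.847) and TYK2 0.10 (SE 0.07, adjusted p = 0.878). Between the sets, IFNAR1, a chain of the type I receptor, was lower in the second set (-0.37, SE 0.07, adjusted p = 0.00199), with 56.6 to 62.3 CPM there and 71.0 to 78.7 CPM in the first set. SOCS1, which blocks JAK kinases, was lower as well (-1.43, SE 0.20, adjusted p = 0.00043), with 3.32 to 6.63 CPM in the second set and 9.56 to 15.8 CPM in the first. Neither gene separated number 4 from number 5 by the test.

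Position ties many of the members together. Of the 39, 19 have another member within 100000 bases, among them the IFIT genes on chromosome 10, OAS1, OAS2 and OAS3 on chromosome 12, HERC5 and HERC6 on chromosome 4, SAMD9 and SAMD9L on chromosome 7, IFI44 and IFI44L on chromosome 1, MX1 and MX2 on chromosome 21 and IFITM1 and IFITM3 on chromosome 11. The members are therefore not independent readings of one response. From number 4 to number 5, the log2 change of HERC6 was -1.55 and that of HERC5 -0.78, and the change of RSAD2 was -2.15 and that of CMPK2 -1.18. The differences between such neighbours were not tested. In all, 19 members overlap another gene and 16 overlap one on the opposite strand.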

How the data were processed

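RNA of TPC-1 cells was taken up in TRIzol and cleared of DNA before NEBNext Ultra library preparation, per the labels' protocols. Per the submitters' processing notes, the tools were DESeq2 1.20.0, featureCounts 1.5.0-p3, HISAT2 2.0.5, fastp and CASAVA 1.8, on hg38. The sources used here do not give their roles, the annotation release or the strand setting. Per the file headers, the 2 tables deposited by the authors hold a raw count per gene and library, beside the gene length. Per the file headers, the authors' second table also holds, for OE against EV in replicates 4 and 5, log2 fold changes with raw and adjusted p-values. A further 14 per-library columns were not used. The headers of the second table number replicates 4 and 5 as 1 and 2, and the sample descriptions give the match.

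Counts were joined by gene identifier. R 4.3.3 and edgeR 4.0.16 were used: a filter on low counts (a count of 10 at the median depth and a total of 15), TMM scaling, quasi-likelihood F tests, and Benjamini-Hochberg adjustment over all genes tested, with a threshold of 0.05. CPM values are scaled by the TMM factors, and standard errors were computed from the F statistic. Alternatives were RLE scaling, DESeq2 1.42.0, limma-voom (limma 3.58.1), no filter (a total of 1 count), the replicate number as a block, and each library left out in turn. Fits were tested on simulated counts. Libraries of the same group, paired within and across the sets, differed by more than sampling noise. Their chi-square per degree of freedom was 4.30 to 53.1 over 20 pairs, a range that also holds the difference between the sets.

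The members, the pathway lists, the markers and the comparison of replicate numbers were chosen with earlier results of these data known. Values were printed in full for members past the threshold, at most 12 per comparison by lowest p, for the 4 with the lowest p where fewer than 4 passed, and for members of the same family. For other pathway genes, up to 3 per list with the lowest p were named. KRT8, KRT18, KRT19, EPCAM, CDH1, PTPRC, LILRA4, IFNB1 and further members were named after their values were seen. Promoter windows came from RefSeq; IFIT2, MX2, OAS2, OASL, DHX58, IRF7, USP18 and TRIM22 were not matched. Some genes of the lists are not reported here.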

Additional observations from a re-analysis of the deposited data

Results flagged for a closer look

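In groups of 5 libraries, a library was singled out when the gap between it and its nearest neighbour exceeded 0.71 of the whole range of the group. Chance does this in about 1 in 20 groups. Of 66 groups (33 members with enough counts, EV and OE each), 33 had such a library: OE replicate 4 in 22, EV replicate 4 in 10 and EV replicate 5 in 1. Members are not independent of each other, and no explanation was tested. The share of such groups over all genes was not computed, so this count cannot be set against other genes.

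Both number 4 libraries stood out for 10 members. EV and OE replicate 4 had 220.4 and 256.4 CPM of IFIT3, 26.3 and 28.3 CPM of ISG20, 89.6 and 109.9 CPM of OASL, and 36.5 and 43.4 CPM of IFIH1. They had 136.0 and 133.5 CPM of DDX58, 38.5 and 63.0 CPM of IRF7, and 74.1 and 78.9 CPM of HERC6. They had 18.6 and 19.4 CPM of USP18, 36.8 and 33.9 CPM of SAMD9L, and 130.5 and 122.0 CPM of DDX60.

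For 12 members OE replicate 4 alone stood out, with 198.4 CPM of IFIT1, 147.4 CPM of IFIT2, 399.9 CPM of ISG15, 46.1 CPM of OAS1, 325.7 CPM of OAS3 and 199.4 CPM of IFI44. It also had 10.7 CPM of IFI44L, 66.9 CPM of IFI35, 11.99 CPM of RSAD2, 77.8 CPM of HERC5, 66.7 CPM of SAMD9 and 76.98 CPM of PARP9. EV replicate 5 stood out for IFIT5, at 20.4 CPM, as the lowest of its group.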

How the results depend on the processing

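All 28 members lower in replicate number 5 than in number 4 kept their direction in the 15 alternatives tried, and 28 were still called by DESeq2, 27 with RLE scaling and 25 by limma-voom. Leaving out 1 library in turn gave 5 to 31 members lower, with medians of -1.44 to -1.05. For number 4 against numbers 1 to 3, it gave medians of 0.72 to 1.19 and 0 to 1 members lower, and for number 5 against numbers 1 to 3, 0 to 13 lower. Between the sets it gave 0 to 16 members higher and 1 to 2 lower, limma-voom gave 2 higher (9.4% of all genes), and no filter gave 23 higher and 2 lower (4.58% and 4.96%). In settings chosen after seeing the data, without both number 4 libraries, 0 were higher and 7 lower (median -0.224); without both number 5 libraries, 24 were higher and 0 lower (median 1.03).

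For OE against EV without a filter, 1 member was higher over both sets (0.0231% of all genes), 1 higher and 1 lower in the first set (0.106% and 0.212%), 1 higher in the second set (0.0343%) and 2 in the difference between sets (0.0659%). DESeq2 gave 1 higher and 1 lower in the first set (0.167% and 0.363%). Leaving out 1 library gave 0 to 2 higher and 0 to 8 lower in the first set, medians of -0.671 to 0.941 in the second set and of -0.409 to 1.01 for the difference. In the second set the sign turned for IFI6 (-0.335 to 1.2, with -0.0166 without EV replicate 5), IRF7 (-0.377 to 1.27) and OAS1 (-0.453 to 1.69). For the difference it turned for IRF7 (-0.0883 to 1.55), IFI44L (-0.158 to 2.23), IFIT2 (-0.214 to 1.59) and RSAD2 (-0.782 to 2.09). The cause was not tested.

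The libraries are described as 5 pairs, with no word on what makes a pair. The deviations of same-numbered EV and OE libraries had correlations of -0.114, 0.0035 and 0.16 in numbers 1 to 3. In the second set, with 2 libraries per group, numbers 4 and 5 give the same value by construction, 0.314. In the first set EV replicate 2 correlated best with OE replicate 1 (0.198). The libraries were therefore taken to share only a number. With the replicate number as a block, 8 members were higher in the second set (IFI6, ISG15, OAS1, IRF7, IFITM3, OAS3, IFIT1 and PARP9) and 0 lower, against 0.326% and 0.166% of all genes. The block left 0 members called in the first set and over both sets.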

Other observations

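Outside the members and the pathway lists used here, 31 genes were lower in replicate number 5 than in number 4. They included the complement component C3, the matrix genes COL4A1, COL6A1, SPARC, TGFBI and EFEMP1, the protease gene PLAU, and ASS1, IGFBP3, DPP4 and SERPINA1. These names were chosen after the values were seen, and no list or theme was tested. Of the 41 genes higher in number 5 than in number 4, 0 were members.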
